A study of Mus musculus with 12 samples.

Results

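The genes described here peak or dip at day 9 of a cardiac differentiation of mouse embryonic stem cells. At day 9 they were higher, or lower, than both in the stem cell samples and at day 14. The 4 day 9 arrays of a series of 12 were set against the mean of the 2 other group means and against each group in turn. A gene was called a peak when its day 9 mean lay at least 1 log2 unit above both other groups, and a dip when it lay at least 1 below both, with the larger of the 2 p-values under 0.05 after Benjamini-Hochberg adjustment over all genes. Of 20882 genes tested, 404 peaked (1.93%) and 628 dipped (3.01%).

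Total RNA was labelled with Cy3 and read on one-colour Agilent arrays, on which the brightness of a probe stands for the level of its transcript. The 3 groups had 4 arrays each. One held embryonic stem cells, called mESC, and the others held differentiating cells at day 9 or day 14 of culture on plates with a coat of crosslinked elastin-like polypeptide, an engineered polymer built from repeats found in elastin. The differentiation medium first lacked leukaemia inhibitory factor, the cytokine that keeps mouse stem cells undifferentiated, and was then changed to a minimal medium with serum replacement. The labels repeat this growth text for every sample and give the cell type of all 12 as embryonic stem cells. The day on which the mESC samples were taken, the line and any reporter are not given in the sources used here. Nothing says whether the 4 arrays of a group came from separate cultures. A p-value here sets a difference between groups against the spread of these arrays within groups, and that spread may be only technical. Slides and scans differ between the groups, and an effect of either cannot be told apart from that of the group.

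When stem cells differentiate without added factors, mesoderm forms first and gives rise to heart muscle, endothelium, primitive blood and loose mesenchyme. Endoderm and ectoderm derivatives usually form beside it. Heart progenitors pass through a stage marked by Isl1, Hand1 and Nkx2-5 before they mature, and the first wave of red cells carries embryonic globins that are later replaced. Macrophages and liver-like cells tend to appear late in such cultures. Since the RNA is from whole cultures, fewer cells of a type and less RNA per cell cannot be told apart.

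Values are log2 intensities after subtraction of each array's 75th percentile, and every difference is on this scale, with a standard error from 1 moderated variance per gene over 4 arrays a group. Before scaling, that percentile lay between 345.9 and 507.8 on the 12 arrays, lowest in mESC and highest at day 14, and 60% to 68.7% of spots were well above background. The day 9 arrays were the least alike, with a median SD per gene of 0.14 against 0.08 in mESC and 0.09 at day 14. Standard errors and p-values assume 1 spread for the 3 groups, so both may be too small for genes that scattered most at day 9. Spike-in control probes, which carry the same added RNA on every array, stood at a median of -0.48 for day 9 minus mESC and 0.15 for day 9 minus day 14. Of 25 pluripotency genes listed, 22 were tested and 1 dipped. The linear levels of the 22 added up to between 820 and 882 in mESC, between 65.2 and 80.0 at day 9, and between 59.6 and 66.1 at day 14, while 29 sarcomere genes summed to 17.4 to 19.1, then 347 to 723, then 350.4 to 488.

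Set against the mean of both other groups, 2332 genes were higher at day 9 (11.2%) and 2529 were lower (12.1%) by at least 1 at an adjusted p under 0.05. Of the higher genes 1703 lay within 1 log2 unit of day 14, and in 751 day 9 stood between the other groups, and only 404, or 17.3%, were peaks. Of the lower genes 1390 lay within 1 of day 14 and 628, or 24.8%, were dips. The 2 differences behind a peak share the day 9 arrays, so a high day 9 mean raises both.

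**Figure D1:**
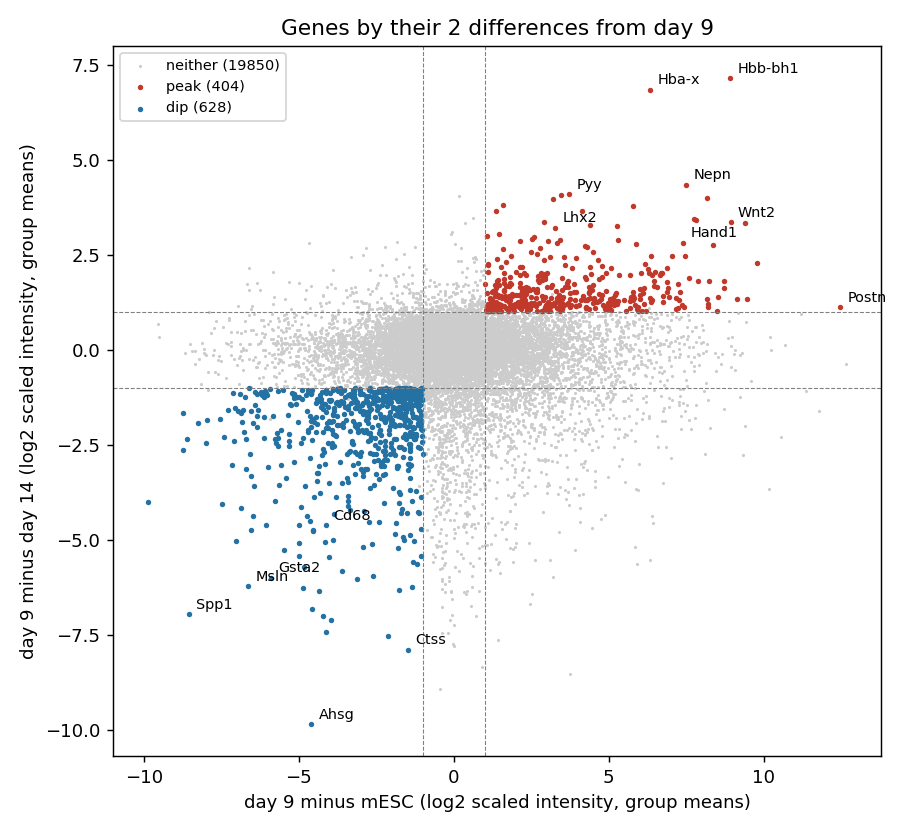
Each point is 1 of 20882 genes, placed by its day 9 mean minus its mESC mean (horizontal axis, log2) and minus its day 14 mean (vertical axis, log2), with dashed lines at differences of 1 and -1. The 404 peaks (red) fill the upper right and the 628 dips (blue) the lower left corner, with Hbb-bh1 and Hba-x at the top, and the cloud is widest along the horizontal axis.

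At day 14, 243 of the 404 were still above their mESC level by the same test, 154 were neither above nor below it and 7 were below. Over all genes 22.8% were higher and 24.1% lower at day 14 than in mESC. The median peak stood 3.12 above mESC and 1.37 above day 14, against medians of -0.16 and 0.09 over all genes. Of the dips 294 were near mESC at day 14, 257 were still below and 77 were above, with median differences of -2.60 from mESC and -1.77 from day 14.

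Many of the turns came from low levels. Of the peaks 201 had no probe above background on any mESC array and 37 none on any day 14 array, and 202 were measured in every group. Of the dips 183 had no probe above background at day 9 and 445 were measured in every group. For such a gene the text gives a bound, "at least N-fold", which sets the mean of the bright group against a floor on each array of the dim group. The floor is the dimmest signal well above background on that array, or the gene's own signal where that was brighter. Where the gene's own signal was brighter throughout, as in Has2 and Cdx2, the value is the plain difference of the means and no stricter than that. The day 9 arrays did not overlap the other 8 in 385 peaks and 592 dips, where over all genes the day 9 arrays lay above the others in 11.7% and below them in 9.27%. Since the calls were made on these same values, little overlap follows from the choice and is no separate support. At a threshold of 2 on both sides 61 peaks and 182 dips were left. With the normexp background correction, which draws low signals together, only 154 peaks and 172 dips were called. With each array scaled on its median in place of its 75th percentile there were 552 peaks and 545 dips, so that peaks made up 50.3% of the calls in place of 39.1%. The same change of scale moved the median of all genes from -0.16 to -0.29 for day 9 minus mESC and from 0.09 to 0.28 for day 9 minus day 14.

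By the smaller of the 2 differences, the embryonic globins Hbb-bh1 and Hba-x were among the tallest of the 404 peaks. Of 14 tested genes of the erythroid list 5 peaked (35.7%): the beta-like globins Hbb-bh1 and Hbb-y, the alpha-like globins Hba-x and Hba-a1, and Alas2, the erythroid enzyme that starts haem synthesis. Hbb-bh1, a globin of primitive red cells, read -7.58, -7.70, -7.53 and -7.67 in mESC, 2.26, -0.34, 1.10 and 2.17 at day 9, and -4.96, -6.44, -5.38 and -6.60 at day 14. No array of another group came near the day 9 values, although the latter were widely spread. The gene stood at least 238-fold above mESC, where no array was above background, and 7.14 ± 0.54 above day 14 (adjusted p = 1.32e-06 by limma).

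Hba-x, the embryonic alpha-like chain, read -7.35, -7.53, -7.37 and -4.72 in mESC, 0.69, -2.22, -0.70 and 0.57 at day 9, and -6.83, -7.96, -6.23 and -8.00 at day 14. It peaked on all 4 day 9 arrays, and mESC replicate 4, the only mESC array above background, lay apart from the other mESC arrays. Day 9 was at least 67.5-fold above day 14 and 6.33 ± 0.79 above mESC (adjusted p = 5.21e-05), and the call held when that mESC array was left out. Its difference from the mean of both other groups ran from 2.26 to 7.19 over the alternatives, the low end with normexp. Hbb-y read -4.36, -4.99, -4.47 and -4.48 in mESC, -1.46, -3.74, -2.84 and -1.65 at day 9, and -3.46, -3.59, -4.65 and -4.56 at day 14. Here the lowest day 9 array lay below 2 of the day 14 arrays, and the differences were smaller, at 2.15 ± 0.48 and 1.64 ± 0.48 (adjusted p = 0.0133). Hba-a1, a chain of later haemoglobin, differed by 3.56 ± 0.46 and 2.43 ± 0.46 (adjusted p = 0.00109). Globin genes of 1 cluster are close in sequence, and the probe of Hba-a1 may also bind its near-identical copy, so the share of each gene in these signals is uncertain. With the normexp correction 2 members of the list peaked, Hbb-bh1 and Hba-x, and the calls of Hbb-y, Hba-a1 and Alas2 were lost.

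The erythroid regulators were not among the peaks. Gata1, the transcription factor of red cell genes, differed by -0.64 ± 0.15 from mESC and 0.64 ± 0.15 from day 14, and Klf1, another such factor, by -1.27 and 0.23. Over the 14 genes the medians were 1.76 and 0.87, the latter between -0.07 and 1.06 under the normexp, quantile and median settings, and the summed level was 5.99 to 6.69 in mESC, 6.44 to 11.8 at day 9 and 4.13 to 4.46 at day 14, so the summed ranges of mESC and day 9 overlapped.

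Promoters of the globin genes that peaked are shown because these genes peaked together. They come from the RefSeq annotation of GRCm38.p6, which held 3 of the 4 by symbol, each given 5′ to 3′ on its own strand for the 150 bases before the start. Capitals mark exact matches on either strand to 4 short words. GATAA is the core that factors of the Gata1 family bind. CCACCC is a box bound by Krüppel-like factors such as Klf1. CCAAT is a general promoter box. ATAAA is a core of the TATA type. Among the 250 bases before the start of 32851 promoters, 22.6% held the first of these words, 28.1% the Krüppel-like box, 33.8% the general box and 37.3% the TATA-type core, so each is frequent and a match describes the letters only. Those stretches are longer than the 150 bases shown, so the shares are not those of windows of that length.
Hba-x, chr11:32276450-32276599, plus strand: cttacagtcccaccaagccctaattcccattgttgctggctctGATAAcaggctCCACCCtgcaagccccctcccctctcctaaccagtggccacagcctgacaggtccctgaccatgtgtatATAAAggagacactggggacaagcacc
Hbb-y, chr7:103853208-103853357, minus strand: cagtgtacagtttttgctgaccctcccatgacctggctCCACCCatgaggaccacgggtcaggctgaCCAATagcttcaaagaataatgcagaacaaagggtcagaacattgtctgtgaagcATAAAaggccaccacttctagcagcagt
Hba-a1, chr11:32283522-32283671, plus strand: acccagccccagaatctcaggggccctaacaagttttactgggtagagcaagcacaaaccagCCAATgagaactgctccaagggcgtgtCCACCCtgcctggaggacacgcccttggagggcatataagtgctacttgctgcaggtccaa
All 3 windows held CCACCC, at 96 bases before the start in Hba-x, 112 in Hbb-y and 61 in Hba-a1. The ATAAA core lay 27 bases before the start in Hba-x and 28 in Hbb-y, and GATAA was in the Hba-x window only, 107 bases before the start. Hba-a1 had no exact match to ATAAA. Its window holds the similar letters atataag near the start, which the exact word leaves unmarked, so a TATA-type core is not shown to be absent.

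Endothelial genes peaked beside the globins, in 8 of 26 tested members (30.8%): Cdh5, Flt1, Tek, Tie1, Emcn, Cldn5, Plvap and Aplnr. Cdh5, the cadherin of endothelial junctions, read -7.02, -7.10, -6.96 and -7.06 in mESC, 0.11, -0.20, 0.32 and 0.35 at day 9, and -1.12, -1.23, -1.18 and -1.34 at day 14. It was above background on no mESC array and on all day 9 and day 14 arrays, with no overlap between groups. Day 9 was at least 107-fold above mESC and 1.36 ± 0.11 above day 14 (adjusted p = 1.65e-06).

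Emcn, the endothelial sialomucin endomucin, was at least 165-fold above mESC and 1.81 ± 0.08 above day 14. Plvap, a protein of endothelial fenestrae, read -1.94, -2.08, -1.97 and -2.01 in mESC, 0.10, -0.24, 0.30 and 0.41 at day 9, and -2.75, -2.70, -2.71 and -2.65 at day 14. Both flanking groups lay well below it, with day 14 minus mESC at -0.70. Tie1, a receptor kinase of vessels, was at least 21.1-fold above mESC and 1.96 ± 0.11 above day 14. Aplnr, the apelin receptor of angiogenic endothelium and early mesoderm, stood 2.81 ± 0.21 and 1.97 ± 0.21 above. The list's medians were 2.18 from mESC and 0.60 from day 14. Kdr, the receptor of vascular growth factor, differed by 2.42 ± 0.11 and 0.53 ± 0.11. Pecam1, which stem cells also carry, differed by -3.59 ± 0.10 from mESC and 1.21 ± 0.10 from day 14, and the summed level of all 26 genes, with Pecam1 among them, was 33.96 to 35.4 in mESC, 24.5 to 30.8 at day 9 and 15.7 to 17.4 at day 14. With any 1 array left out 8 members peaked, and with normexp 4, Cdh5 and Tie1 not among them.

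Transcription factors of lateral plate, limb and pharyngeal mesoderm gave 9 peaks of 30 tested members (30%) and 1 dip. The peaks were Hand1, Tbx4, Shox2, Foxc1, Foxc2, Lhx2, Msx1, Msx2 and Nkx2-3. Hand1, a factor of the first heart field and extraembryonic mesoderm, read -4.45, -4.66, -4.72 and -5.14 in mESC, 2.92, 2.24, 2.43 and 3.05 at day 9, and -0.17, -0.26, -0.15 and -0.02 at day 14. The 3 groups were far apart, with day 9 above mESC by 7.40 ± 0.19 and above day 14 by 2.81 ± 0.19 (adjusted p = 4.62e-07).

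Lhx2, a LIM-homeodomain factor, read -0.32, -0.33, -0.39 and -0.45 in mESC, 2.78, 2.59, 3.1 and 3.09 at day 9, and -0.38, -0.34, -0.51 and -0.02 at day 14. The flanking groups overlapped, and day 14 minus mESC was 0.06, while day 9 lay 3.27 ± 0.13 and 3.20 ± 0.13 above them. Msx2, a homeobox target of BMP signals, had the same form: -2.07, -2.17, -2.07 and -2.14, then 0.54, 0.33, 0.29 and 0.39, then -2.32, -2.17, -2.27 and -2.0. Its differences were 2.50 ± 0.08 and 2.58 ± 0.08 (adjusted p = 1.76e-09). Msx1 stood 3.31 ± 0.23 and 1.53 ± 0.23 above, and the forkhead factors Foxc1 and Foxc2 4.51 ± 0.14 and 1.35 ± 0.14, and 3.47 ± 0.07 and 1.19 ± 0.07. The exception was Osr2, an odd-skipped factor of limb and palate, which had no signal above background at day 9 and was at least 6.53-fold higher in mESC and at least 6.96-fold higher at day 14, a call not kept with normexp. The list's median from day 14 was 0.52, and -0.03 to 0.71 under the normexp, quantile and median settings.

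Of 29 heart transcription factors 4 peaked (13.8%): Hand1, Isl1, Nkx2-5 and Irx5. Isl1, which marks second heart field progenitors, read -2.67, -2.60, -2.64 and -2.71 in mESC, -0.23, 0.94, 0.45 and 0.02 at day 9, and -1.89, -1.35, -1.82 and -1.15 at day 14. All day 9 arrays were the highest, with differences of 2.95 ± 0.24 and 1.85 ± 0.24 (adjusted p = 6.50e-05). Nkx2-5, the homeobox factor of heart muscle, read -2.13, -2.41, -2.23 and -2.31, then 0.88, 2.50, 2.16 and 1.56, then 0.25, 0.72, 0.38 and 1.03. Day 9 replicate 1 lay below the highest day 14 array. The difference from day 14 was 1.18 ± 0.30 (adjusted p = 0.00667) and was 0.94 without day 9 replicate 2, which ended the call. That of Irx5 (3.0 ± 0.13 and 1.18 ± 0.13), an Iroquois factor, was lost with normexp. Gata4, Tbx5, Tbx20 and Hand2 were above day 14 by 0.79 ± 0.14, 0.86 ± 0.12, 0.62 ± 0.07 and 0.75 ± 0.16, and Mef2c by 0.15 ± 0.17, all under the threshold. Of the list 19 of 29 were above both groups by any amount (65.5%, against 24.4% of all genes).

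Of 29 sarcomere genes 3 peaked (10.3%) and 1 dipped, and their median was 5.24 from mESC and 0.33 from day 14. Actc1, cardiac alpha-actin, read -3.11, -3.18, -3.07 and -3.16 in mESC, 4.85, 5.79, 5.64 and 5.16 at day 9, and 4.13, 4.44, 4.23 and 4.60 at day 14. It stood 8.49 ± 0.18 above mESC and only 1.01 ± 0.18 above day 14. The call was lost with quantile normalization and without day 9 replicate 2 or 3 or day 14 replicate 1 or 3, when the difference was 0.87 to 0.97. Tnni1, the slow troponin I of the fetal heart, was 5.24 ± 0.19 and 1.29 ± 0.19 above, and Nebl, a protein of thin filaments, was the other peak, lost with normexp. Myh6, the alpha myosin heavy chain, stood 7.28 ± 0.31 above mESC and 0.01 ± 0.31 from day 14, and Tnnt2 and Myh7 stood 0.57 ± 0.21 and 0.58 ± 0.21 above day 14. Nppa, the atrial natriuretic peptide, was on the other side at -0.97 ± 0.43 (adjusted p = 0.0800). Myom2, an M-band protein of mature muscle, was the dip: 1.61, 1.71, 1.72 and 1.68 in mESC, -2.72, -2.02, -2.28 and -2.39 at day 9, and 0.84, 1.23, 0.97 and 1.60 at day 14. Its differences were -4.04 ± 0.17 and -3.51 ± 0.17, with no overlap.

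**Figure D2:**
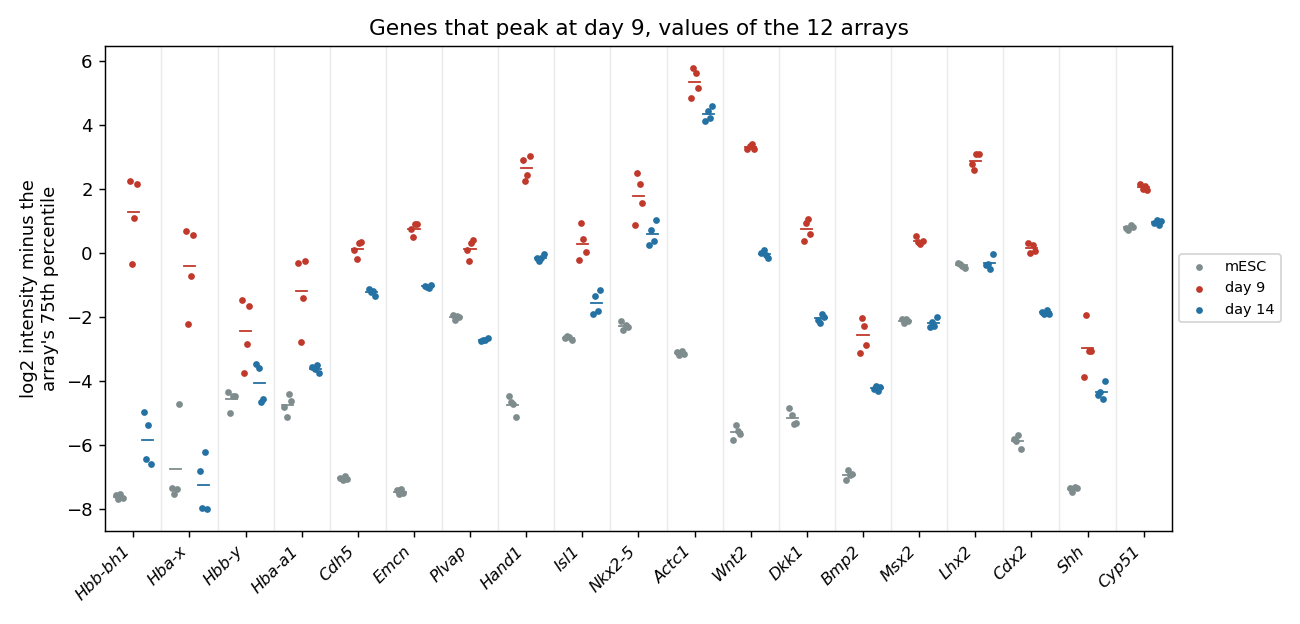
Points are the 12 arrays (grey mESC, red day 9, blue day 14) for 19 genes called as peaks, with bars at group means, on the vertical axis of log2 intensity minus the array's 75th percentile. Levels are comparable within a gene and not between genes. The red points are uppermost throughout except single arrays of Hbb-y and Nkx2-5, and they scatter most in the globins, Nkx2-5 and Shh and least in Wnt2 and Cyp51.

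Secreted signals and their inhibitors turned in several pathways. In the Wnt pathway 4 of 36 tested genes peaked (11.1%) and 3 dipped. Wnt2, a Wnt ligand of early heart mesoderm, read -5.84, -5.37, -5.57 and -5.66 in mESC, 3.25, 3.35, 3.42 and 3.27 at day 9, and 0.01, 0.08, -0.05 and -0.14 at day 14. Its day 9 arrays lay close together, at least 488-fold above mESC and 3.34 ± 0.09 above day 14 (adjusted p = 7.79e-10). Dkk1, a secreted antagonist of Wnt receptors, read -4.86, -5.07, -5.34 and -5.30, then 0.39, 0.93, 1.06 and 0.61, then -2.08, -2.19, -1.91 and -1.99. It stood 5.89 ± 0.15 and 2.79 ± 0.15 above.

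The other Wnt peaks were the receptor Fzd7 and the decoy Sfrp5, the latter 1.82 ± 0.13 and 1.76 ± 0.13 above. The dips were the ligand Wnt6 (-1.61 ± 0.13 and -1.83 ± 0.13) and the inhibitors Wif1 and Notum, so ligands and inhibitors were found on both sides. Wnt5a, a ligand of the non-canonical branch, was above background on no mESC array and on all others, and stood 0.00 ± 0.18 from day 14. With normexp 3 members peaked and none dipped, and Sfrp5 and Wnt6 were among those lost.

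In the BMP and TGF-beta pathway 6 of 32 peaked (18.8%): the ligands Bmp2, Bmp5 and Tgfb2, the targets Msx1 and Msx2, and the matrix protein Tgfbi. Bmp2 read -7.09, -6.78, -6.95 and -6.91 in mESC, -3.12, -2.03, -2.29 and -2.86 at day 9, and -4.26, -4.16, -4.30 and -4.19 at day 14. Day 9 was the highest on every array, at least 16.0-fold above mESC and 1.65 ± 0.20 above day 14. Bmp5 was at least 12.96-fold and 1.64 ± 0.09 above. Bmp4, the main BMP ligand of mesoderm formation, missed the threshold from day 14 at 0.86 ± 0.09. The activin subunit Inhbb dipped, with differences of -3.64 ± 0.08 and -1.99 ± 0.08, but its other tested probe differed by only -0.95 and -0.36 and was not called. With normexp 4 members peaked, Bmp2 and Bmp5 not among them.

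Among growth factor genes Fgf10, a ligand of second heart field and limb, peaked by 4.17 ± 0.09 and 1.42 ± 0.09, and the receptor Fgfr3 by 2.33 ± 0.08 and 1.64 ± 0.08. Pdgfa and Fgf1 dipped, Pdgfa by differences of -1.90 ± 0.07 and -1.05 ± 0.07 and Fgf1 by -1.04 ± 0.18 and -2.02 ± 0.18, with 1 mESC and 1 day 9 array of Fgf1 above background. Calls of Fgf10, Pdgfa and Fgf1 were lost with normexp, that of Pdgfa also with median scaling, and that of Fgf1 also without mESC or day 9 replicate 2. Igf2, a fetal growth factor, was 10.22 ± 0.06 above mESC and -0.02 ± 0.06 from day 14. Axon guidance and ephrin genes, which also pattern vessels, peaked in 4 of 26 cases (15.4%): the semaphorin receptors Nrp1 and Plxna2, the arterial ephrin Efnb2 and the netrin receptor Unc5c, while Ntn1, a netrin, dipped (-1.88 ± 0.29 and -1.14 ± 0.29). The call of Ntn1 was lost with normexp, quantile or median scaling and without day 9 replicate 1 or 4. Nrp1 was at least 367-fold above mESC and 1.33 ± 0.14 above day 14, and Efnb2 5.94 ± 0.07 and 1.12 ± 0.07 above. Of 20 genes in the Notch pathway none was called, where 1.93% of all genes peaked and 3.01% dipped.

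Gut endoderm markers peaked in 6 of 20 cases (30%): Cdx2, Shh, Ihh, Cldn6, Vil1 and Tff3. Cdx2, a factor of hindgut and trophoblast, read -5.82, -5.87, -5.70 and -6.12 in mESC, 0.32, -0.01, 0.26 and 0.05 at day 9, and -1.85, -1.90, -1.76 and -1.89 at day 14. It was at least 65.5-fold above mESC and 2.00 ± 0.10 above day 14 (adjusted p = 4.71e-08). Shh, a hedgehog ligand of gut and notochord, read -7.35, -7.47, -7.31 and -7.34, then -3.89, -1.92, -3.06 and -3.05, then -4.45, -4.33, -4.58 and -4.00. The day 9 arrays were widely spread but stayed above day 14, by 1.36 ± 0.32 (adjusted p = 0.00389). The call of Shh and that of Ihh, the other hedgehog ligand, were lost with normexp. That of Ihh (1.02 ± 0.16 above day 14) was also lost without day 9 replicate 2 or 3 or day 14 replicate 3 or 4, when it stood at 0.94 to 0.99. Vil1, which builds the brush border, was above both flanking groups by nearly equal amounts, 1.62 ± 0.15 and 1.57 ± 0.15. Lgals4, an intestinal lectin, went the other way, with differences of -3.34 ± 0.06 and -2.67 ± 0.06.

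Of 24 visceral endoderm and liver genes 4 peaked (16.7%) and 1 dipped. The peaks were Apob, the protein of lipoprotein particles (6.16 ± 0.55 and 2.26 ± 0.55), Rbp4, the retinol carrier (4.40 ± 0.09 and 1.53 ± 0.09), Cubn, an uptake receptor of yolk sac endoderm (at least 83.4-fold and 2.03 ± 0.23), and Spink1, a trypsin inhibitor (8.35 ± 0.21 and 2.74 ± 0.21). The dip was Ahsg, the fetal serum protein fetuin. It read -0.24, -0.11, -0.16 and -0.12 in mESC, -4.69, -4.79, -4.51 and -5.03 at day 9, and 4.97, 5.08, 5.14 and 5.19 at day 14. Its differences were -4.60 ± 0.10 and -9.85 ± 0.10. The whole list's summed level was 206 to 220 in mESC, 157 to 230 at day 9 and 361 to 391.7 at day 14.

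Trophoblast genes peaked in 4 of 14 cases (28.6%), but Cdx2 and Hand1 stand in other lists too. The remaining ones were Plac1, a placental surface protein (at least 99.7-fold and 1.95 ± 0.24), and the imprinted gene Peg10 (2.12 ± 0.09 and 1.76 ± 0.09). Imprinted genes peaked in 3 of 22 cases (13.6%), Peg10, Magel2 and the placental growth restrainer Phlda2 (1.62 ± 0.15 and 1.86 ± 0.15). Grb10, a brake on insulin signalling, dipped (4.55%), with differences of -1.59 ± 0.05 and -1.47 ± 0.05. Of 17 neural crest genes 4 peaked (Ets1, Msx1, Msx2 and Alx1, 23.5%) and 2 dipped (Sox10 and Ngfr, 11.8%). Of 28 Hox genes Hoxb1 and Hoxb5 peaked (7.14%) and Hoxc5 dipped (3.57%). Over all genes 1.93% peaked and 3.01% dipped, so the share of Hox dips was near that of all genes. Calls of Peg10, Magel2, Alx1, Sox10 and the 3 Hox genes were lost with normexp. That of Sox10 (-1.06 ± 0.15 and -1.17 ± 0.15) was also lost with quantile or median scaling and without day 9 replicate 3, and that of Ngfr with the mean over probes. Of the other 2 tested Grb10 probes 1 was called a dip. Hoxc5 was below background on all day 9 arrays, at least 2.69-fold higher in mESC and at least 2.03-fold higher at day 14, and its call was also lost with quantile or median scaling, with array weights, and without day 9 replicate 2 or 4 or day 14 replicate 2.

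Genes of sterol and fatty acid synthesis differed by small amounts, mostly in 1 direction. Of 23 tested, 3 peaked (13%), Hmgcs1, Cyp51 and Nsdhl, and 19 (82.6%) were above both groups by any amount, against 24.4% of all genes, and their medians were 0.67 from mESC and 1.09 from day 14. Under the normexp, quantile and median settings the medians were 0.54 to 0.96 and 1.09 to 1.28. Cyp51, which removes a methyl group from lanosterol, read 0.78, 0.74, 0.87 and 0.83 in mESC, 2.15, 2.01, 2.10 and 1.97 at day 9, and 0.96, 1.03, 0.87 and 1.00 at day 14. The groups were tight and apart, with differences of 1.25 ± 0.05 and 1.09 ± 0.05 (adjusted p = 6.26e-08).

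Hmgcs1, the first enzyme committed to the pathway, read 4.28, 4.34, 4.27 and 4.34, then 5.39, 5.65, 5.62 and 5.63, then 4.54, 4.62, 4.51 and 4.57. Its differences were 1.26 ± 0.06 and 1.01 ± 0.06, so close to the threshold that quantile normalization (0.91) or leaving out any of 4 single arrays (0.99 to 1.00; day 9 replicate 2, 3 or 4, or day 14 replicate 3) ended the call. Nsdhl, at 1.07 ± 0.08 and 1.12 ± 0.08, was not called with normexp or median scaling or without day 9 replicate 4 (0.996 above mESC).

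Other tall peaks were single genes of varied function. Has2, which makes the hyaluronan of the cardiac jelly, read -5.82, -5.72, -5.50 and -6.14 in mESC, 3.59, 3.36, 3.61 and 3.85 at day 9, and 0.18, 0.29, 0.22 and 0.36 at day 14. Its groups were narrow and far apart, at least 675-fold from mESC and 3.34 ± 0.13 from day 14. Nepn, a secreted leucine-rich proteoglycan, read -5.75, -6.17, -5.82 and -5.43, then 1.76, 1.70, 1.73 and 1.62, then -2.29, -2.85, -2.59 and -2.83. It stood at least 180-fold above mESC and 4.34 ± 0.15 above day 14 (adjusted p = 4.35e-09).

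Pyy, a peptide hormone of the gut, read -1.67, -1.92, -1.74 and -1.97, then 1.23, 2.20, 2.37 and 1.82, then -2.04, -2.27, -2.18 and -2.23. Day 14 minus mESC was -0.36, with day 9 higher by 3.73 ± 0.20 and 4.09 ± 0.20. Hsd3b2, an enzyme of steroid hormone synthesis, read 0.03, 0.96, 1.03 and 0.90 at day 9 and was at least 161-fold above mESC and 3.98 ± 0.18 above day 14. Its relative Hsd3b6 was at least 29.1-fold and 3.77 ± 0.29 above, a call lost with normexp. Genes of this family are close in sequence, so their probes may share signal. Asb4, a subunit of ubiquitin ligases, was 7.81 ± 0.10 and 3.40 ± 0.10 above, and the sulfate transporter Slc13a4 3.05 ± 0.15 and 2.87 ± 0.15. Further peaks named for their size were the receptors Gfra3 (3.32 ± 0.27 and 2.80 ± 0.27) and Rxfp3 (at least 12.0-fold and at least 10.6-fold, lost with normexp), the adhesion molecule Igsf11 (5.28 ± 0.27 and 2.88 ± 0.27), and Greb1 and Emb (4.30 ± 0.13 and 2.71 ± 0.13, and 2.70 ± 0.16 and 2.52 ± 0.16).

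Postn, the mesenchymal matrix protein periostin, was above background on no mESC array and stood at least 4443-fold above that group. It was only 1.12 ± 0.29 above day 14 (adjusted p = 0.00738), and 0.93 and 0.98 without day 9 replicate 1 and 4, when it was not called. In its list of 25 fibroblast and collagen genes Postn and Twist2 peaked (8%) and Thy1 dipped (4%, near the 3.01% of all genes), and the median lay below day 14, at -0.88.

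Spp1 and Msln were among the deepest dips that were measured in every group. Spp1, the secreted phosphoprotein osteopontin, read 7.0, 7.10, 7.10 and 6.96 in mESC, -1.57, -1.11, -1.22 and -2.17 at day 9, and 5.52, 5.39, 5.51 and 5.35 at day 14. Its differences were -8.56 ± 0.19 and -6.96 ± 0.19 (adjusted p = 6.71e-10), and day 14 minus mESC was -1.59. Msln, the surface protein mesothelin of mesothelium and epicardium, read 2.33, 2.26, 2.36 and 2.22, then -4.24, -3.93, -4.62 and -4.55, then 1.94, 1.92, 1.85 and 1.83. Its differences were -6.63 ± 0.13 and -6.22 ± 0.13. Thy1, a surface glycoprotein of fibroblasts and neurons, read 0.62, 0.60, 0.68 and 0.63, then -4.33, -4.10, -4.04 and -4.17, then -0.95, -0.33, -0.82 and -0.20. It differed by -4.79 ± 0.15 and -3.58 ± 0.15. On the probes of these 3 genes the groups were apart by several times their spread, but the other tested Thy1 probe differed by only -1.65 and -0.32 and was not called.

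The genes given next, from Nckap1l to Cd300lf, were named because their dips were deep, so their low day 9 values follow from that choice, and they form no list of their own. Nckap1l, an actin regulator of blood cells, read 2.65, 2.65, 2.67 and 2.64, then -4.19, -4.40, -4.67 and -4.20, then 0.74, 0.55, 0.85 and 0.51. Rac2, a GTPase of leukocytes, read 0.39, 0.47, 0.35 and 0.39, then -4.37, -4.74, -4.50 and -4.71, then 0.62, 0.49, 0.65 and 0.25. Nckap1l differed by -7.02 ± 0.11 from mESC and -5.03 ± 0.11 from day 14, and Rac2 by -4.98 ± 0.10 and -5.08 ± 0.10, with no overlap in either.

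Clec10a, a lectin of macrophages, was below background on all day 9 arrays, at -7.30, -7.96, -7.15 and -7.84, against -2.0, -2.15, -2.03 and -2.12 in mESC and -1.95, -2.48, -2.12 and -2.58 at day 14. It was at least 31.8-fold higher in mESC and at least 27.5-fold higher at day 14. Further deep dips were Slc11a1, a metal transporter of phagocytes (-6.53 ± 0.08 and -4.76 ± 0.08), and Arhgap30 (-6.49 ± 0.16 and -4.38 ± 0.16). The myosins Myo1f (-4.98 ± 0.14 and -4.61 ± 0.14) and Myo1g (-4.72 ± 0.15 and -4.38 ± 0.15) dipped as well. Unlike Clec10a, both myosins were above background on all day 9 arrays, and Arhgap30 was on 1. Fcgr2b, an inhibitory antibody receptor, was at least 23.2-fold higher in mESC and at least 27.1-fold higher at day 14, and the receptor Cd300lf at least 13.8-fold and 14.7-fold.

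Many macrophage markers were dim in mESC too. Of the 25 tested, 5 dipped (20%): Cd68, Fcgr3, Spi1, Laptm5 and Ctss. The list's median was -0.10 from mESC and -5.11 from day 14. The summed level of the 25 lay between 3.88 and 4.39 in mESC, between 0.91 and 1.20 at day 9, and between 49.8 and 60.7 at day 14. Of them 10 markers, among them Adgre1, C1qa, C1qc, Cx3cr1 and Msr1, were below background on all mESC and all day 9 arrays and present on all at day 14. Cd68, a glycoprotein of lysosomes in phagocytes, read 0.63, 0.37, 0.60 and 0.42, then -3.65, -3.66, -3.53 and -3.59, then 1.10, 0.99, 1.09 and 0.90. Its differences were -4.11 ± 0.07 and -4.63 ± 0.07. Ctss, a protease of antigen-presenting cells, read -3.80, -3.67, -3.82 and -3.70, then -5.24, -4.25, -5.64 and -5.73, then 2.76, 2.56, 2.85 and 2.57. It differed by -1.46 ± 0.26 from mESC and by -7.90 ± 0.26 from day 14. Spi1, the master factor of myeloid cells, was below background in both mESC and day 9, so its call rests on a difference between signals that were both not well above background. With normexp 2 of the 5 were called, without Ctss, Fcgr3 and Spi1.

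Complement and coagulation genes dipped in 5 of 20 cases (25%), among them C1s1, C2, C4b and the prothrombin gene F2, with a list median of 0.78 from mESC and -3.15 from day 14. C1s1, a protease of the first complement component, differed by -3.41 ± 0.13 and -4.12 ± 0.13, and with normexp 3 members dipped.

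Interferon and antigen presentation genes dipped in 5 of 24 cases (20.8%): Oas1a, Bst2, Ifitm3, Psmb9 and Cd74. Psmb9, an immunoproteasome subunit, read -1.76, -1.64, -1.55 and -1.65, then -3.72, -3.52, -3.51 and -3.64, then -1.97, -1.45, -1.56 and -1.52. Day 14 minus mESC was 0.02, and day 9 differed by -1.95 ± 0.10 and -1.97 ± 0.10. Bst2, a membrane tether of viruses, differed by -2.28 ± 0.06 and -1.23 ± 0.06. The list did not move as 1 block: Ifit1 and Ifit3, induced by interferon, were above background on no mESC array and on all day 9 and day 14 arrays. The macrophage sums given above moved alongside the complement and interferon lists between day 9 and day 14, and their part in these results was not tested. Calls of C4b and Oas1a were lost with normexp.

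Gsta2, a glutathione transferase and another gene named for its dip, read -1.56, -1.53, -1.63 and -1.70, then -7.42, -7.36, -7.46 and -7.78, then -1.5, -1.74, -1.31 and -1.45. It was below background at day 9 and at least 44.1-fold higher in mESC and at least 47.3-fold higher at day 14. Gsta1 differed by -4.83 ± 0.18 and -5.71 ± 0.18, but the probes of this family may bind each other's transcripts.

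The fatty acid transporter Slc27a2 differed by -4.65 ± 0.27 and -4.50 ± 0.27. Adh1, an alcohol dehydrogenase, was below background at day 9 and at least 12.1-fold higher in mESC and 83.7-fold higher at day 14, a call not kept with normexp. Of 24 genes of fatty acid oxidation and lipid uptake 3 dipped (12.5%), Cpt1a, Angptl4 and Pdk4. Cpt1a, which carries fatty acids into mitochondria, read 2.58, 2.51, 2.53 and 2.54, then 0.02, -0.46, -0.33 and 0.06, then 1.30, 1.27, 1.37 and 1.26. It differed by -2.72 ± 0.10 and -1.48 ± 0.10, while the list's median from mESC was 0.04, and -0.09 to 0.25 under the normexp, quantile and median settings. The call of Pdk4 was lost with normexp.

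Matrix, lysosome and tissue markers added further dips. Of 22 elastic fibre genes 3 dipped (13.6%), Mfap5, Ltbp2 and Ltbp4. Ltbp4, which binds latent TGF-beta and guides elastin assembly, read 3.36, 3.37, 3.35 and 3.42, then 1.22, 0.87, 1.13 and 1.28, then 4.19, 4.18, 4.21 and 4.18, and differed by -2.25 ± 0.07 and -3.07 ± 0.07. Calls of Mfap5 and Ltbp2 were lost with normexp, and that of Mfap5 also without day 9 replicate 2. Of 26 lysosome genes 4 dipped (15.4%), among them Ctss, Gpnmb and Cd9, and Ctsh peaked.

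Neuronal genes dipped in 4 of 21 cases (19%), Nefm, Gad1, Stmn2, a microtubule regulator of axons (-2.83 ± 0.12 and -1.65 ± 0.12), and the neurofilament Nefl (-2.96 ± 0.20 and -1.45 ± 0.20), while Isl2, a LIM-homeodomain factor of motor neurons, peaked (1.11 ± 0.08 and 2.23 ± 0.08). Calls of Gad1 and Isl2 were lost with normexp, and that of Isl2 also with median scaling. Skeletal muscle genes dipped in 3 of 20 cases (15%, against 3.01% of all genes), Myog, Chrna1 and the embryonic myosin Myh3 (-5.41 ± 0.23 and -3.38 ± 0.23). Acta1 peaked (5%, against 1.93%), and the calls of Myog and Chrna1 were lost with normexp. Of 20 genes of the epiblast list 2 dipped (10%), Lefty1, a Nodal antagonist, and Gsc, a factor of the organizer. Lefty1 differed by -2.79 ± 0.09 and -1.36 ± 0.09, and Gsc by -1.75 ± 0.13 and -1.52 ± 0.13. Genes of germ cells and of the totipotent-like state dipped in 3 of 15 cases (20%), Dazl, Tcstv1 and Usp17la, and none of these with normexp. Dazl, which binds messenger RNA in germ cells, differed by -8.73 ± 0.30 from mESC and -1.66 ± 0.30 from day 14. Without any 1 of the mESC arrays (replicates 1 to 4) its other probe stood for it and differed by -0.17 from day 14, which ended the call.

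**Figure D3:**
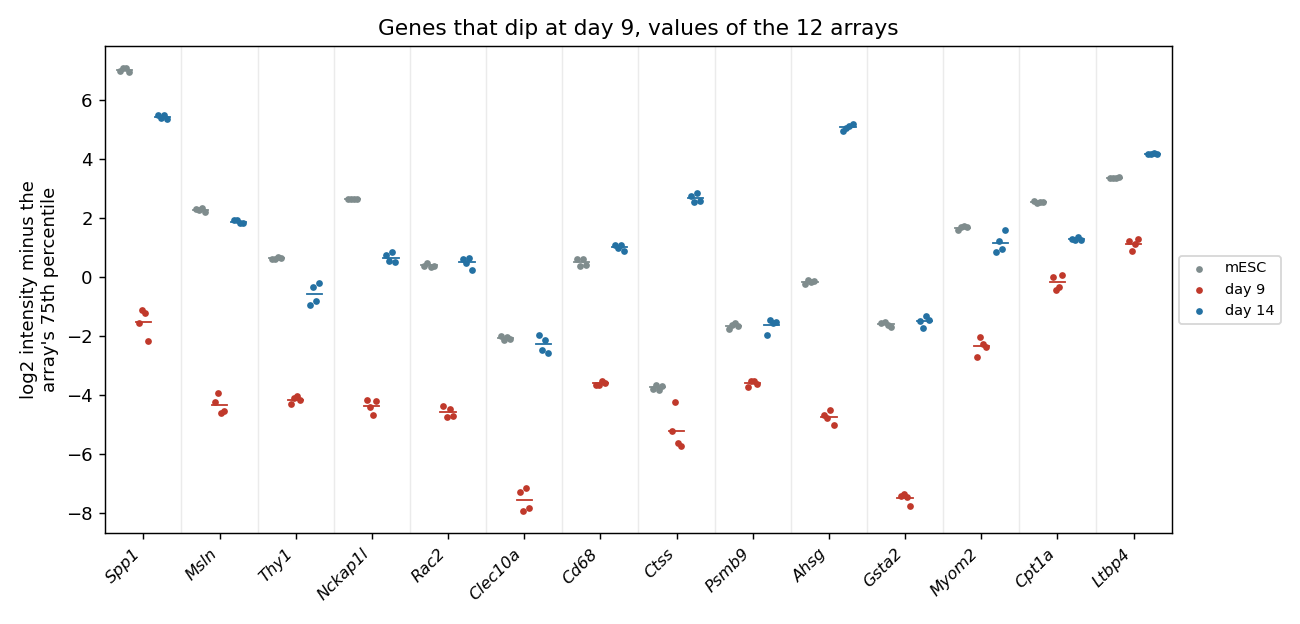
Points are the 12 arrays (grey mESC, red day 9, blue day 14) for 14 genes called as dips, with bars at group means, on the vertical axis of log2 intensity minus the array's 75th percentile. The red points are the lowest in every gene, Ahsg and Ctss end far above their mESC level, and Nckap1l, Thy1 and Cpt1a end below it.

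Of the 55 lists 11 held no peak and no dip among 224 tested members: mitosis, DNA replication, ribosome biogenesis, cytosolic ribosomal proteins, oxidative phosphorylation, glycolysis, Notch, amino acid stress, metallothioneins, histones and natriuretic genes. Over all genes only 1.93% peaked and 3.01% dipped, so a list as short as the 10 natriuretic genes may well hold none. With an array left out, up to 1 dip appeared in glycolysis and in Notch and up to 1 peak among natriuretic genes. Quantile normalization also gave 1 dip in glycolysis. The DNA replication list had medians of -1.23 from mESC and 0.51 from day 14, and the ribosome biogenesis list of -1.32 and 0.52, so day 9 lay between the other groups in both. The mitotic cyclin Ccnb1 stood at -1.77 ± 0.04 and 0.47 ± 0.04. In glycolysis 14 of 25 genes (56%) were lower than both groups by any amount, against 23.1% of all genes, with medians of -0.90 and -0.18, the latter 0.01 at the top of the range over the other scalings. Peaks were found in 32 lists and dips in 34, with both in 22.

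**Figure D4:**
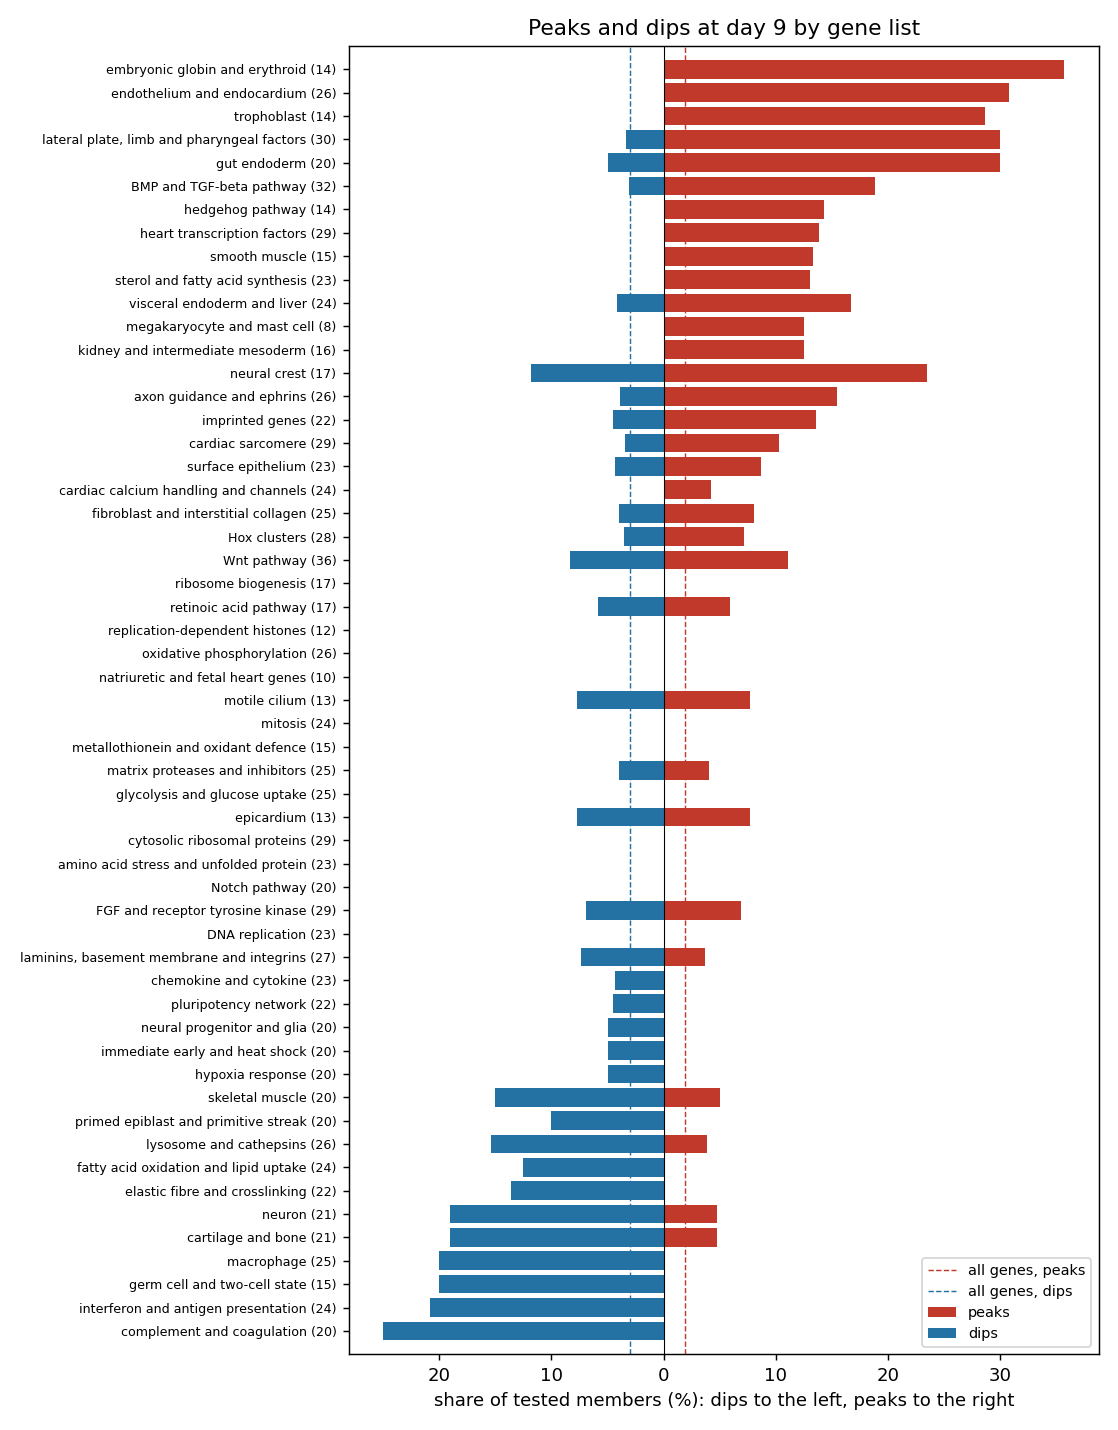
Bars give the share of tested members of each of 55 gene lists (number tested in brackets) that peaked (red, to the right) or dipped (blue, to the left) at day 9, in percent, and dashed lines mark 1.93% and 3.01%, the shares over all genes. The erythroid (35.7%) and endothelial (30.8%) lists have the highest shares of peaks and complement (25%) the highest share of dips, in lists of 26 genes or fewer. With normexp, which is not drawn, 2 erythroid and 4 endothelial genes peaked and 3 complement genes dipped.

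The 4 day 9 arrays differed among themselves, and the order of the arrays depended on the gene group. Genes of the erythroid list were highest on replicate 1 and lowest on replicate 2, with median deviations from their day 9 mean of 0.51, -0.59, -0.10 and 0.31 for replicates 1 to 4. Sarcomere genes went the opposite way, at -0.81, 0.48, 0.36 and -0.11, and so did calcium handling genes (-0.55, 0.58, 0.25 and -0.16) and gut endoderm genes (-0.42, 0.44, 0.11 and -0.16). Fibroblast and Hox genes took the same sides as the erythroid list, at 0.25, -0.37, -0.09 and 0.22, and 0.22, -0.32, -0.06 and 0.12. For single genes, Myh6 read 3.73, 5.36, 5.12 and 4.07 and Nppa -2.42, 0.18, -0.81 and -1.67 on the arrays where Hbb-bh1 read 2.26, -0.34, 1.10 and 2.17. The medians of mitosis and ribosomal protein genes hardly moved between the arrays, within 0.03 and 0.05 of 0. The median over all genes lay near 0 too, where the scaling of each array tends to hold it. Such medians of signed deviations do not show the spread of single genes, whose median SD at day 9 was 0.14 over all genes.

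**Figure D5:**
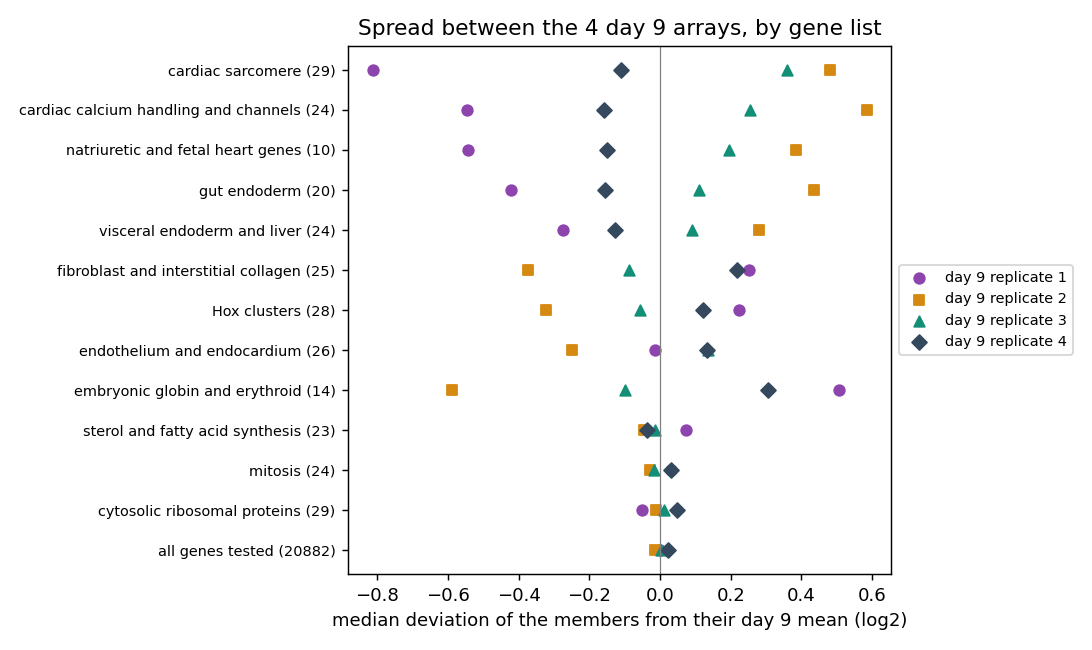
For 12 gene lists and all 20882 genes, points show the median deviation of the members from their own day 9 mean (horizontal axis, log2) on each of the 4 day 9 arrays, with the number of genes in brackets. Replicates 1 and 2 lie at opposite ends in the heart, gut and erythroid lists, in reversed order between heart and erythroid genes, and all 4 lie close to 0 for ribosomal proteins and mitosis.

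The spread reached the peaks and the dips alike, with a median SD at day 9 of 0.26 and 0.30. Among the 404 peaks the highest day 9 array was replicate 2 in 132, replicate 3 in 129, replicate 1 in 76 and replicate 4 in 67, against 25.8%, 18.4%, 24.8% and 31% over all genes for these arrays. Leaving out 1 array at a time gave 378 to 440 peaks and 604 to 655 dips. Without day 9 replicate 2, the lowest for the globins, 367 of the 404 peaks were called again, and without replicate 1, 384.

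Just inside the threshold among peaks were Tgfbr3 and Rras2, 1.00 ± 0.19 and 1.01 ± 0.06 above day 14, calls that several alternatives ended, and just outside Grin3a and Rasd1, which rounded to 1.00. Among dips Plekhg6 and Slc44a3 were just inside, at -1.0 from day 14, and these calls too were ended by several alternatives (7 and 8). Just outside were Scn1a, above background on no day 9 array, and Dnah5, on no mESC array, the latter with an adjusted p of 0.134. By size alone 412 genes peaked and 652 dipped, of which 32 missed the test.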

How the data were processed

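Expression was read from 12 one-colour Agilent arrays. Per the file headers and the submitters' processing notes, Agilent Feature Extraction 12 turned each deposited scan into a processed signal, a background-subtracted intensity on a linear scale, with no scaling between arrays. The series' value table held the same deposited intensities, with 0 differences. Flags for spots above background, saturated or outlying are 0 or 1, per the file headers.

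From these, log2 values were computed, less each array's 75th percentile over non-control spots, outlier spots (792) were left out and spots of a probe averaged. Probes above background on at least 3 of 4 arrays of at least 1 group were tested (28393 of 41174), and each gene was represented by its tested probe of highest mean. RefSeq accessions of GRCm38.p6 named 28223 probes, and 20882 genes resulted, 15563 with a symbol. Other accessions count as genes. Among peaks with other tested probes these were all called alike in 65 of 86, and among dips in 80 of 140, with 0 called the opposite. Per the file headers the array's own annotation refers to mm9, an older build, so positions are given only for RefSeq promoters.

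Group means over all 12 arrays were fitted with limma 3.58.1 in R 4.3.3, and the two-sided p-values of both differences were taken, the larger of them adjusted by the Benjamini-Hochberg method over all genes. The adjusted p and ± SE in the text are limma's. The scripts were tested on simulated data. The members and the 55 gene lists were chosen with earlier results of these data known. Genes with a proper symbol were named by size (12 peaks and 12 dips by the smaller difference where measured in every group, 8 each by the smaller bound), as up to 4 called members of a list, as listed key genes, as the genes next to the threshold, or as a list's full set of called members. Other genes in sentences on a list were chosen after their values were seen. Alternatives were normexp with an offset of 50, quantile and median scaling, other filters, probe rules, variance models and thresholds, and each array left out. Normexp used the median spot signal in place of the planned mean signal, which was not used here. Some results on named genes are not reported here.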

Additional observations from a re-analysis of the deposited data

Results flagged for a closer look

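Among 41 genes given array by array, 123 groups of 4 arrays were checked for an array that lies apart, by the gap to its nearest neighbour as a share of the group's range with Dixon's critical value. Chance marks about 1 in 20 such groups, and 3 were found. Hba-x stood at -4.716 on mESC replicate 4, where the nearest mESC array was at -7.354, a gap share of 0.938, and that array was the only one of its group above background. Hsd3b2 stood at 0.03042 on day 9 replicate 1 against 0.9011 on the nearest, a share of 0.871. Hmgcs1 stood at 5.39 on day 9 replicate 1 against 5.616, a share of 0.853.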

How the results depend on the processing

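The counts of peaks, dips, and genes higher or lower than the mean of the other groups were 404, 628, 2332 and 2529. With normexp they were 154, 172, 957 and 1146, where 139 of the 404 peaks and 172 of the 628 dips were called again. On probes above background on all arrays they were 165, 323, 1174 and 1272, with fewer genes tested. A difference of at least 2 left 61 peaks and 182 dips. Among genes measured in every group, a restriction chosen after seeing the data, 202 peaks were left. Leaving out 1 array gave 378 to 440, 604 to 655, 2298 to 2347 and 2480 to 2568. The counts stayed within 1.5 times under the other alternatives run. The replicate number as a block gave 403 peaks and 627 dips. Same-numbered arrays deviated together weakly or not at all (correlations from -0.07 to 0.18), which cannot settle whether the numbers pair the arrays. With normexp the difference from the mean of the others turned to -0.09733 in Adamts12 and -0.02902 in Gp1ba, both called as peaks, and the cause was not tested. Of 156 named calls 87 were kept under all alternatives run for them, up to 22, and 63 were lost with normexp. With 4 arrays a group and each group on slides of its own, precision is limited by the number of arrays. Fold values against a group with no signal above background are uncertain.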
